A study of Mus musculus with 6 samples.

Results

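The genes described here are the nuclear genes of respiratory complexes II, III, IV and V, with cytochrome c. They were taken from the deposited table as protein-coding genes outside the mitochondrial chromosome whose symbols begin with Sdh, Uqc, Cox followed by a digit, or Atp5, together with Cyc1, Cycs and Atpif1. The choice gave 66 gene symbols of the 54429 in the table, spread over 19 chromosomes, and 60 of them passed the filter on low levels that left 11708 genes for testing. The filter was a mean of at least 1 FPKM (fragments per kilobase of gene length, scaled to library size) over the 6 libraries. By complex, 8 of the members belong to complex II, 12 to complex III, 27 to complex IV and 18 to complex V, and Cycs is the remaining one.

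Complex II, succinate dehydrogenase, oxidises succinate and passes the electrons to ubiquinone. Complex III takes them from ubiquinol to cytochrome c, complex IV takes them from cytochrome c to oxygen, and complex V uses the resulting proton gradient to make ATP. Complex II is built from nuclear gene products alone, whereas complexes III, IV and V each also contain subunits encoded by mitochondrial DNA, and macrophages are known to shift between respiration and glycolysis as their activation state changes.

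The cells were RAW264.7, an established mouse macrophage line, cultured for 3 d in both groups. The Gel/S libraries (n = 3) came from cells kept static with GelMA, a gelatin methacryloyl hydrogel, as the control. The C/D libraries (n = 3) came from cells with GelMA/PEDOT:PSS+PLLA/PDA, a conductive micro-hydrogel system, under dynamic conditions made with ultrasound of 48 kHz for 5 min. PEDOT:PSS is a conducting polymer, PLLA is poly-L-lactic acid and PDA is polydopamine. Material and ultrasound changed together, so their parts in any difference cannot be told apart. The table names its treated columns US_M, and these were read as the ultrasound group C/D. The labels do not say that the libraries of a group came from separate cultures, so the p-values measure only the spread between these libraries, which may be technical.

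Library totals ran from 12818831 to 16525699 counts. Of 10 macrophage markers, 9 were tested. Of these, 1 fell (Csf1r, log2 fold change -0.48, adjusted p = 0.00736) and 8 did not pass, where 13.9% of all tested genes fell. Itgam, Cd68 and Fcgr1 had positive log2 fold changes (0.18, 0.02 and 0.02), and Mertk was near 0 in all libraries. The markers summed to 13540 to 14141 FPKM in Gel/S and 11021 to 11190 in C/D. Lyz2 made up most of this and did not pass (-0.30, adjusted p = 0.0649). The summed fibroblast, osteoblast, endothelial, T cell, B cell and neutrophil markers reached at most 1.07 FPKM in any library. The summed osteoclast markers were 16.6 to 19.6 FPKM in Gel/S and 22.4 to 27.4 in C/D. Most of that sum was Acp5, which rose (log2 fold change 0.53, adjusted p = 0.00818). Ocstamp did not pass (-0.05, adjusted p = 0.836), Ctsk had at most 15 counts in a library, and Calcr was listed at 0. Mitochondrially encoded transcripts took 5.59%, 9.02% and 7.41% of counts in Gel/S and 9.17%, 10.4% and 9.99% in C/D, and Gel/S 1 also had the lowest level for 43 of the 60 tested members. The part of these library differences in the results below was not tested.

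The promoters of some members show the sites for which respiratory genes are known. NRF1 and the ETS-family factor GABP (NRF2) are regulators of nuclear respiratory genes, and their binding motifs were searched, for NRF1 as GCGCA and GCGC with any base between them and for ETS factors as CCGGAAG, on both strands of the RefSeq windows (GRCm38.p6) that run from 250 bases before to 50 bases after each gene start. The stretches below are 30 bases in gene orientation with the match in capitals. The NRF1 motif is shown in members whose levels rose (Atp5k and Uqcc2) and in members whose levels did not pass the test (Sdha and Atp5g2). The ETS motif is shown only in members that rose (Atp5j and Uqcr11), though 8 of 27 that did not pass also have it.
Atp5k, NRF1 match, chr5:108434430-108434459, minus strand: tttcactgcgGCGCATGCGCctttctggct
Uqcc2, NRF1 match, chr17:27133920-27133949, minus strand: gcgccttagtGCGCACGCGCcctctgcggt
Sdha, NRF1 match, chr13:74350276-74350305, minus strand: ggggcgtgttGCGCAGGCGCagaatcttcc
Atp5g2, NRF1 match, chr15:102671070-102671099, minus strand: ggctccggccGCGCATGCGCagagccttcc
Atp5j, ETS match, chr16:84835019-84835048, minus strand: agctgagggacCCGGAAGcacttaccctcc
Uqcr11, ETS match, chr10:80406869-80406898, minus strand: ttctctcctccCCGGAAGtagatgtcaatg

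The NRF1 motif was found in the windows of 14 of the 52 members that have one (26.9%) and of 7.17% of 17492 protein-coding genes. It was in the windows of 5 of 21 members that rose and of 9 of 27 that did not pass the test. The ETS motif was found in 20 of 52 members (38.5%) and 12.9% of protein-coding genes, in 11 of the 21 that rose and 8 of the 27 that did not pass. Other motifs were AAGATGGCG (YY1) in 5.77% of members and 2.14% of genes, TGACGTCA (CREB) in 3.85% and 2.54%, and GGGCGG (SP1) in 53.8% and 49.2%. These matches are descriptions of letters in a window and not of bound sites. Of the regulators themselves, Nrf1 fell (log2 fold change -0.38, adjusted p = 0.037) and Ppargc1b, a coactivator of respiratory genes, rose (0.39, adjusted p = 0.0359). Gabpa, which encodes the DNA-binding subunit of GABP and overlaps Atp5j on the opposite strand, had a log2 fold change of -0.28 (adjusted p = 0.114). The mean levels of Nrf1 and Ppargc1b were low, at 2.32 and 4.30 FPKM, and Ppargc1a was listed at 0. Of the 10 tested regulators 1 rose, 1 fell and 8 did not pass. These counts are near the 13.1% risen and 13.9% fallen among all tested genes.

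Between C/D and Gel/S, 25 of the 60 tested members rose, 1 fell (Atp5a1, the F1 alpha subunit of ATP synthase) and 34 did not pass the test. In the same edgeR quasi-likelihood test at an adjusted p under 0.05, 13.1% of all tested genes rose and 13.9% fell, 27.0% in all. The median log2 fold change was 0.29 over the members and 0.01 over all tested genes. For 31 members every C/D library was above every Gel/S library in FPKM and for 5 members below, against 19.1% and 27.1% of all tested genes. In bulk RNA a lower level per cell and fewer cells with a high level cannot be told apart. The count of risen members was 13 without C/D 1 (21.7% of members, with 7.77% of all genes) and the median was 0.17 without Gel/S 1, where the count was still 25. The plot of fold changes shows the members by complex and role.

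**Figure D1:**
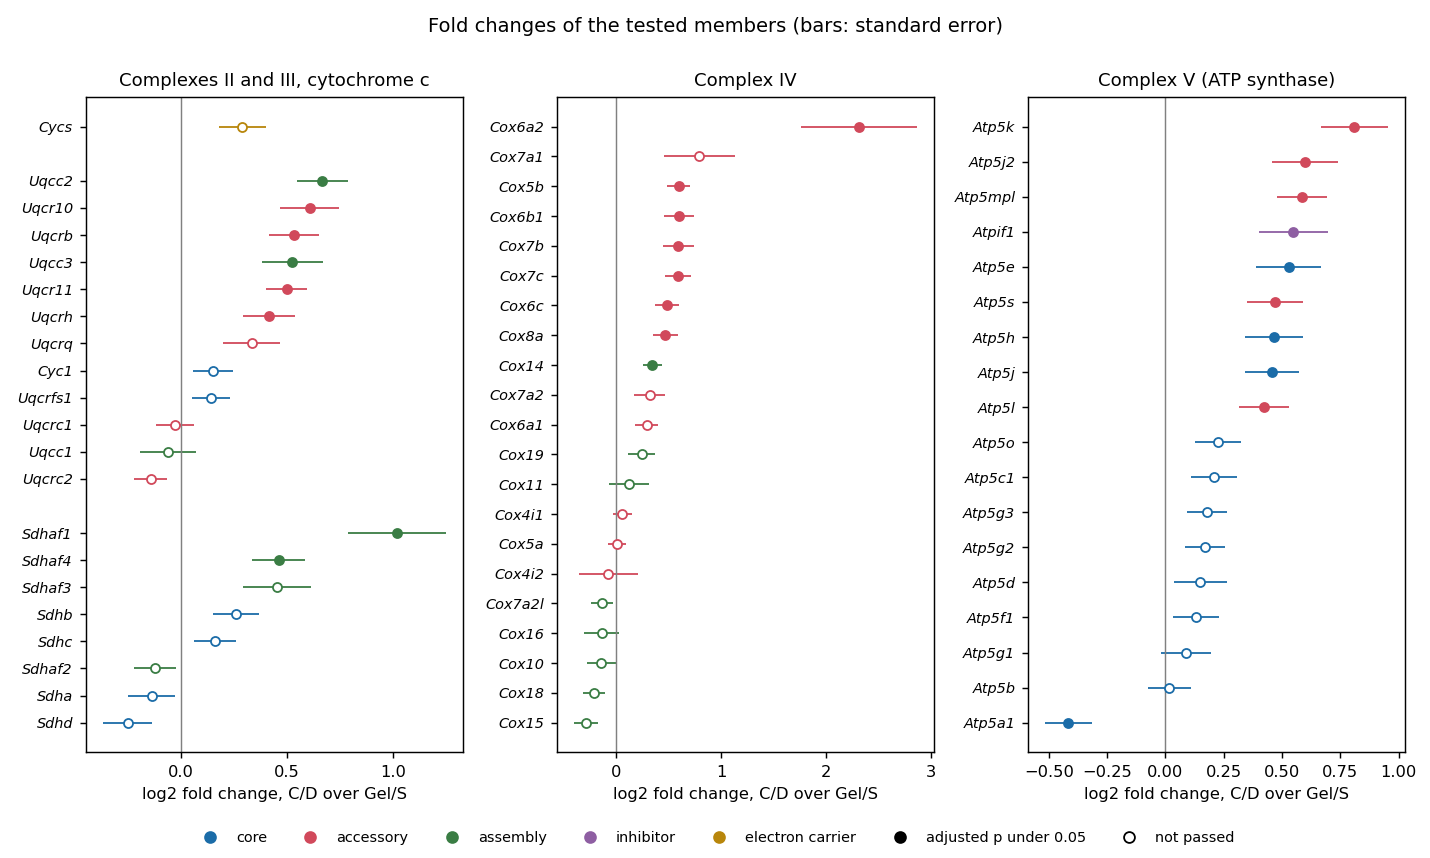
Log2 fold change (C/D over Gel/S, x axis, on a different scale in each panel) of the 60 tested members, with standard errors as bars, by complex and coloured by role; filled points passed the test. Of the 26 filled points, only that of Atp5a1, at -0.42, is left of 0.

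By role, 16 of 25 tested accessory subunits rose (median 0.48 on the log2 scale). The core role was given to subunits that hold the redox centres and to those of the ATP synthase F1 head, c-ring and peripheral stalk. Of 18 core subunits 3 rose and 1 fell, with a median of 0.16. Assembly factors had 5 of 15 risen and a median of 0.12. The shares risen were 64% for accessory subunits, 16.7% for core subunits and 33.3% for assembly factors, against 13.1% of all tested genes. The share of core subunits was thus near that of all genes. Without C/D 1, the risen were 10 accessory subunits, 1 core subunit and 2 assembly factors. The plot of levels by library shows that the contrast runs through most libraries but is strongest against Gel/S 1. Relative to each gene's mean, the median member was at -0.34, -0.01 and -0.08 in Gel/S and at 0.20, 0.12 and 0.14 in C/D (log2 CPM, counts scaled to library size).

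**Figure D2:**
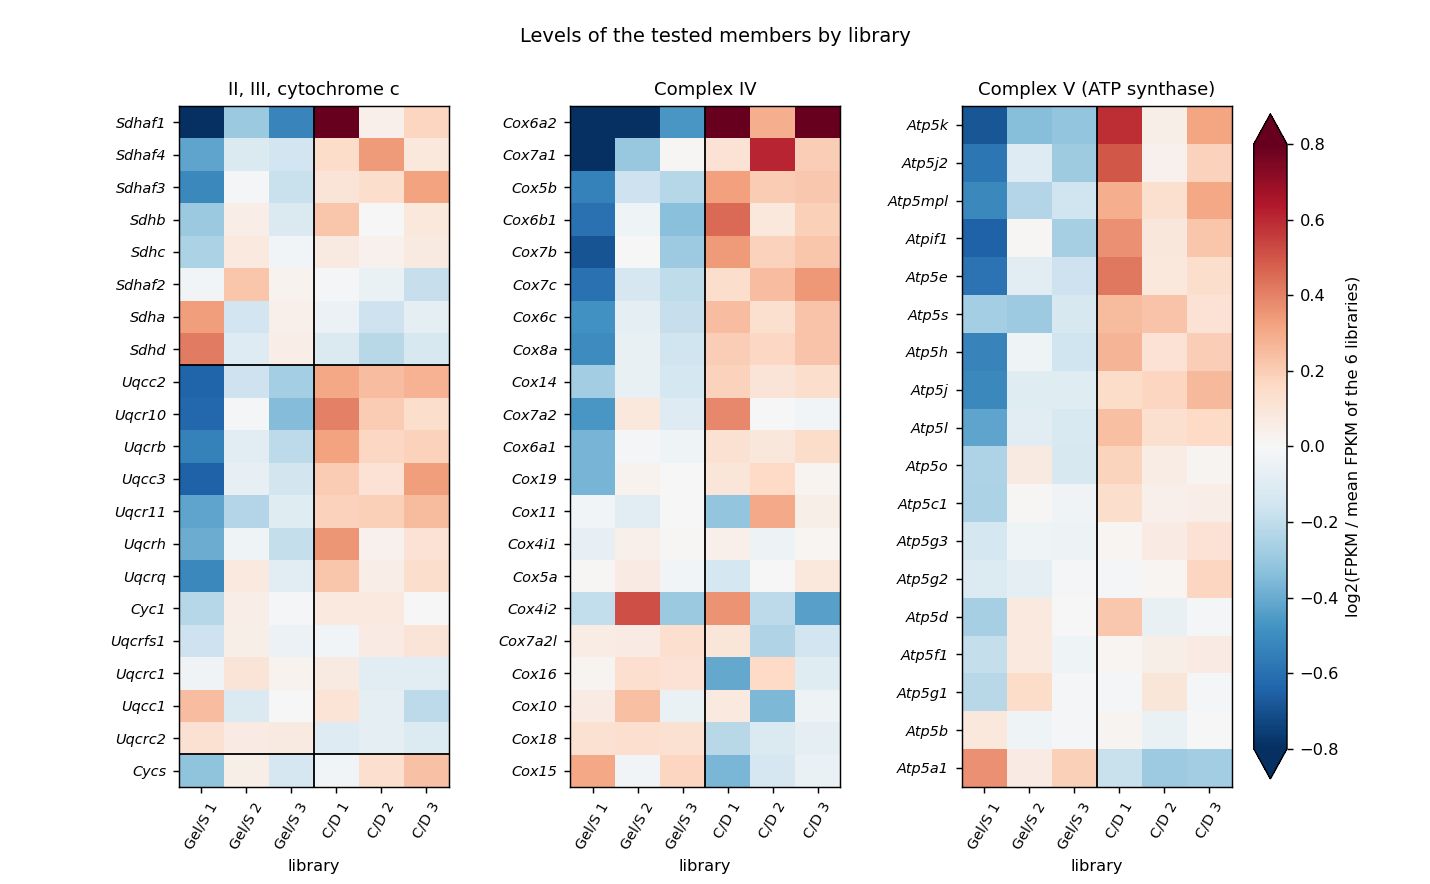
Level of each tested member in each library (columns) as the log2 of its FPKM over its mean FPKM in the 6 libraries, with the colour scale ending at 0.8 in both directions. Gel/S 1 was the lowest library for 43 of the 60 members, and Atp5a1, Sdhd, Uqcrc2, Cox15 and Cox18 are lower in every C/D library than in any Gel/S library.

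In complex II the 4 enzyme subunits did not pass the test and 2 of 4 assembly factors rose. Of all tested genes 27.0% were called in either direction, and groups of 4 are too small to set against that share. Sdha, the flavoprotein that oxidises succinate, was at 64.4, 45.8 and 52.5 FPKM in Gel/S and 49.5, 45.5 and 48.5 in C/D (log2 fold change -0.14, adjusted p = 0.384). Sdhb, which carries the iron-sulfur clusters, was at 48.4, 61.5 and 54.7 in Gel/S and 69.2, 59.5 and 62.9 in C/D (0.26, adjusted p = 0.0879). The groups overlapped for both. Sdhd, a membrane anchor and the complex II gene with the highest level, was at 173, 121 and 135 in Gel/S and 120, 111 and 119 in C/D, so every C/D library was below every Gel/S library, and the difference did not pass (-0.25, adjusted p = 0.129). Sdhc, the other anchor, had a log2 fold change of 0.16 (adjusted p = 0.246). At an unadjusted p under 0.05, 1 of the 4 subunits was higher in C/D, and DESeq2 called 0. Without Gel/S 2, Sdhb passed as higher (0.36, adjusted p = 0.0153) and Sdhd as lower (-0.35, adjusted p = 0.0193). Sdhb also passed after the coding-length correction (0.26, adjusted p = 0.0439), and Sdhd with no filter on low levels (-0.30, adjusted p = 0.0274) and after a correction for the listed gene length (-0.41, adjusted p = 0.0434).

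Sdhaf1 (chr7:30321406-30323895), which helps deliver iron-sulfur clusters to Sdhb, was at 2.64, 4.23 and 3.59 FPKM in Gel/S and 9.48, 5.34 and 5.85 in C/D. All C/D libraries were above all Gel/S libraries, and C/D 1 stood highest. Its mean went from 3.49 ± 0.802 to 6.89 ± 2.26 (SD, n = 3), a fold of 2.02 (log2 fold change 1.02, SE 0.231, adjusted p = 0.0083). Sdhaf4, which binds free Sdha, was at 17.1, 21.1 and 20.5 in Gel/S and 25.3, 29 and 24.3 in C/D (0.46, SE 0.127, adjusted p = 0.0201), again without overlap. Its call was lost without C/D 1 (adjusted p = 0.0518) and without C/D 2 (adjusted p = 0.096), on log2(TPM + 1) (0.0526), and after the corrections for listed length (log2 fold change 0.24, 0.119) and coding length (0.25, 0.093). Sdhaf3, another factor for Sdhb maturation, also had groups that did not overlap but did not pass (0.45, adjusted p = 0.0525). Sdhaf2, which is needed to attach flavin to Sdha, had a log2 fold change of -0.12 (adjusted p = 0.386).

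In complex III, 4 of 7 accessory subunits and 2 of 3 assembly factors rose, against 13.1% of all tested genes. Both nuclear-encoded redox subunits did not pass. Cyc1, which holds the haem of cytochrome c1, was at 45.6, 55.5 and 53.2 FPKM in Gel/S and 56.5, 56.5 and 53.6 in C/D (log2 fold change 0.15, adjusted p = 0.249). Uqcrfs1, the Rieske iron-sulfur protein, was at 84.3, 97.8 and 91.4 in Gel/S and 93, 99.1 and 102 in C/D (0.14, adjusted p = 0.244). Groups overlapped in both, and neither subunit reached an unadjusted p under 0.05 or was called by DESeq2. Of the accessory subunits, the large proteins of the matrix arm, which are related to processing peptidases, did not pass. Uqcrc1 was at 44.3, 48.6 and 46.1 in Gel/S and 47.6, 42.4 and 42.5 in C/D (-0.03, adjusted p = 0.845), and Uqcrc2 had a log2 fold change of -0.14 (adjusted p = 0.194) with every C/D library lower.

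Of the small accessory subunits of complex III, Uqcr11, Uqcrb, Uqcrh and Uqcr10 rose. Uqcr11 was at 124, 141 and 155 FPKM in Gel/S and 188, 190 and 198 in C/D, a mean of 140 ± 15.7 against 192 ± 5.37 (log2 fold change 0.50, SE 0.0971, adjusted p = 0.00401). Uqcrb, which lies near a quinone site, was at 78.4, 108 and 98.9 in Gel/S and 143, 128 and 130 in C/D (0.53, SE 0.117, adjusted p = 0.00702). Neither gene had overlapping groups, but Uqcr11 did not pass after the coding-length correction (0.16, adjusted p = 0.169). Uqcrh, the hinge protein that contacts cytochrome c1 and the complex III gene with the highest level, was at 266, 343 and 308 in Gel/S and 448, 360 and 380 in C/D (0.41, SE 0.122, adjusted p = 0.0264). Its call was lost in 9 of 16 alternative analyses, with an adjusted p of 0.0795 without Gel/S 3, 0.112 without C/D 1 and 0.0619 without C/D 3. It overlaps the pseudogene Gm12854 on the opposite strand, which rose (1.10) but held 815 counts against 39468 for Uqcrh. Uqcr10 also rose (0.61, adjusted p = 0.00921; 0.053 without C/D 1), and Uqcrq did not pass (0.33, adjusted p = 0.0844).

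Uqcc2 (chr17:27122663-27133916), a factor for the synthesis and assembly of cytochrome b, was at 41.9, 58.1 and 54 FPKM in Gel/S and 81, 77.5 and 79.2 in C/D. The C/D libraries were close together and well above all Gel/S libraries. The mean was 51.3 ± 8.45 in Gel/S and 79.2 ± 1.77 in C/D, a fold of 1.59 (log2 fold change 0.67, SE 0.119, adjusted p = 0.00259). Uqcc3, which acts at a later step of cytochrome b assembly, rose as well (0.53, adjusted p = 0.0189), but not without C/D 1 (0.0624) or C/D 3 (0.0789) or by limma on log2 FPKM or TPM (at most 0.0558), and Uqcc1, the partner of Uqcc2, did not pass (-0.06, adjusted p = 0.767). Cycs, the soluble electron carrier between complexes III and IV and a trigger of apoptosis when released, was at 37.9, 49 and 43.2 in Gel/S and 46.8, 52 and 55.8 in C/D. Its groups overlapped and it did not pass (0.29, SE 0.11, adjusted p = 0.069), though it did without Gel/S 2 (0.39, adjusted p = 0.0105) and after the listed-length correction (0.32, adjusted p = 0.0298).

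All catalytic subunits of complex IV are mitochondrially encoded, so its nuclear members are accessory subunits around them and assembly factors. Of 13 tested accessory subunits 7 rose, and of 8 tested assembly factors 1 rose, with median log2 fold changes of 0.48 and -0.14. The share of these assembly factors that rose, 12.5%, is near the 13.1% of all tested genes. Cox5b (chr1:36691449-36693681), a zinc-binding subunit on the matrix side, was at 66.3, 86.2 and 82.3 FPKM in Gel/S and 122, 111 and 112 in C/D. The groups were far apart, at 78.3 ± 10.6 and 115 ± 5.77, a fold of 1.51 (log2 fold change 0.59, SE 0.109, adjusted p = 0.00308). Cox7c was at 120, 165 and 157 in Gel/S and 199, 214 and 230 in C/D (0.58, SE 0.123, adjusted p = 0.00579). Cox6c was at 52.6, 69.9 and 64.6 in Gel/S and 87.4, 80.5 and 86.3 in C/D (0.48, SE 0.113, adjusted p = 0.00957). These single-span membrane subunits were higher in every C/D library than in any Gel/S library. Cox7b also rose (0.59, adjusted p = 0.013; 0.0621 without C/D 1).

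Cox8a (chr19:7215158-7217616), a small membrane subunit and the complex IV gene with the highest FPKM on the listed gene lengths, was at 407, 553 and 515 FPKM in Gel/S and 660, 647 and 675 in C/D. The C/D libraries were tightly grouped above the others (492 ± 75.7 against 661 ± 14.1, log2 fold change 0.47, SE 0.116, adjusted p = 0.0129), with an adjusted p of 0.0519 without C/D 3 and 0.0598 after the coding-length correction, where the log2 fold change was 0.18. Over all 6 libraries Cox4i1 had more counts than Cox8a (52348 against 28645), and more per base of transcript (68.4 against 52.1). Its paralogs Cox8b and Cox8c, the first known from muscle and the second from testis, were listed at 0 in all libraries, as was Cox7b2. The other paralog pairs, in the plot of paralogous subunits, also had 1 dominant form in these cells, apart from the Cox7a and Atp5g families. Cox4i1, the general form of subunit 4, was at 351, 378 and 370 in Gel/S and 379, 359 and 372 in C/D (0.05, adjusted p = 0.672). The hypoxia-linked form Cox4i2 was at 4.37, 7.16 and 4.08 in Gel/S and 6.44, 4.34 and 3.71 in C/D (-0.08, adjusted p = 0.857). Both overlapped between groups.

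Cox6a1, the general form of subunit 6a, was at 233, 300 and 294 FPKM in Gel/S and 327, 320 and 333 in C/D, with no overlap, and did not pass (log2 fold change 0.29, adjusted p = 0.0662; 0.0217 without Gel/S 2). DESeq2 called it risen (0.29, adjusted p = 0.0428). Its heart and muscle paralog Cox6a2 (chr7:128205435-128206387) was at 0.092, 0.365 and 1.14 in Gel/S and 3.05, 1.92 and 2.84 in C/D, from 1, 4 and 12 counts and from 27, 21 and 29 counts. Cox6a2 thus rose from a very low level (2.31, SE 0.553, adjusted p = 0.0105) while staying far below Cox6a1. It was the 1 member that passed the filter only through its level in C/D, so its difference is partly fixed by the filter, and without it 24 of 59 tested members rose. The counts by role, complex and coding length include it. Cox6b1, which lies at the dimer contact of complex IV, was at 233, 344 and 280 in Gel/S and 482, 373 and 402 in C/D, above every Gel/S library (0.59, SE 0.144, adjusted p = 0.0114; 0.0623 without C/D 1). The testis form Cox6b2 had at most 3 counts in a library and was not tested.

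The subunit 7a family had its highest levels in Cox7a2l, a factor that joins complexes III and IV into supercomplexes. It was at 245, 245 and 258 FPKM in Gel/S and 250, 198 and 211 in C/D (log2 fold change -0.14, adjusted p = 0.33), and it passed as lower after the corrections for listed length (-0.32, adjusted p = 0.0209) and coding length (-0.30, adjusted p = 0.0286). Cox7a2, the general form, was at 102, 149 and 130 in Gel/S and 183, 140 and 138 in C/D (0.32, adjusted p = 0.129; 0.0197 without Gel/S 2). Groups overlapped for both genes. Cox7a1, the muscle form, was at 1.52, 2.9 and 3.61 in Gel/S and 3.88, 5.46 and 4.1 in C/D, every C/D library being higher, and did not pass (0.79, adjusted p = 0.1). Among the assembly factors, Cox14 rose (0.34, adjusted p = 0.0167), but its call was lost without Gel/S 3 or any 1 C/D library (adjusted p from 0.0503 to 0.0629), on log2(TPM + 1) (0.065), and after both length corrections, where its log2 fold change was 0.11 (listed length) and -0.0006 (coding length). Cox15 and Cox18, for haem a synthesis and membrane insertion of the mitochondrially encoded Cox2 protein, were lower in every C/D library without passing (-0.29 and -0.22, adjusted p = 0.0728 and 0.143). Cox17 and Cox20, both factors for the copper-binding Cox2 protein, had means just under 1 FPKM and were not tested.

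**Figure D3:**
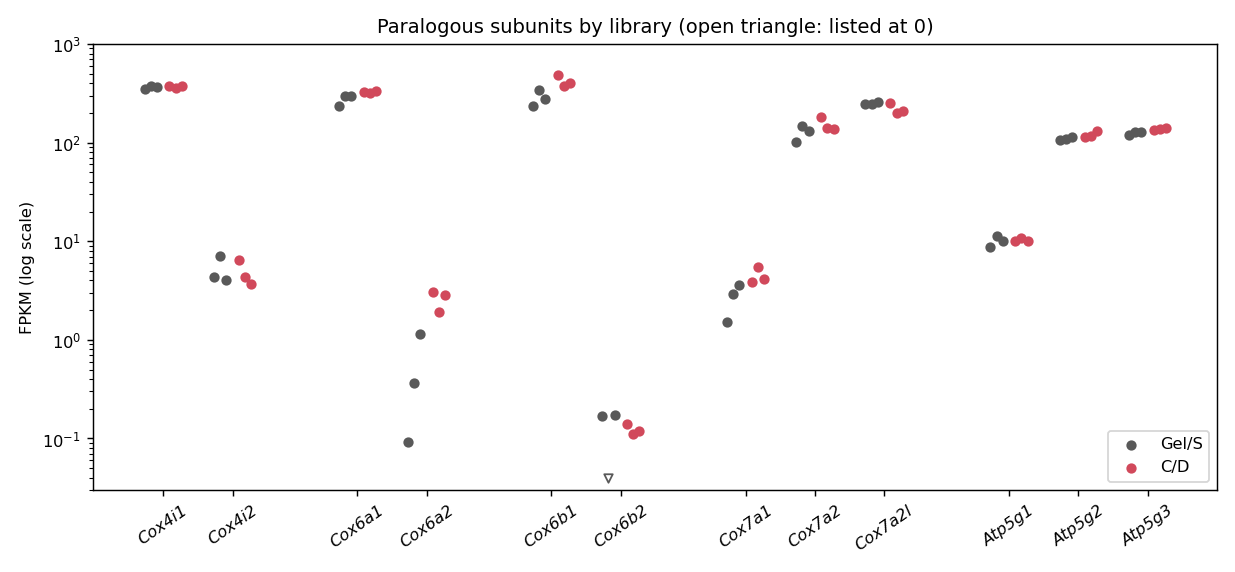
FPKM (log scale) of paralogous subunits of complexes IV and V, with 1 point per library in the order 1 to 3 and an open triangle for a library listed at 0. Cox4i2, Cox6a2, Cox6b2 and Cox7a1 lie far below their paralogs, and Cox6a2 is higher in all 3 C/D libraries (1.92 to 3.05) than in all Gel/S libraries (0.092 to 1.14).

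In complex V, ATP synthase, all 4 accessory subunits of its membrane part rose, 1 of 5 subunits of the F1 head rose and 1 fell, and the c-ring genes did not pass. Of all tested genes 13.1% rose and 13.9% fell. The counts of the head and the ring are too small to tell from those shares. Atp5a1, the non-catalytic alpha subunit, was at 269, 217 and 237 FPKM in Gel/S and 184, 170 and 171 in C/D. Every C/D library was below every Gel/S library, and the means were 241 ± 25.8 and 175 ± 7.52, a fold of 0.75 (log2 fold change -0.42, SE 0.0998, adjusted p = 0.0108). Its adjusted p was 0.0608 without C/D 2 and 0.056 without C/D 3. Atp5b (chr10:128083273-128090391), the catalytic beta subunit that alternates with alpha in the head and the complex V gene with the highest FPKM on the listed lengths (Atp5e had more counts per base of transcript, 56.7 against 43.3), was at 227, 209 and 211 in Gel/S and 217, 206 and 213 in C/D. It was level between the groups, at 216 ± 9.71 and 212 ± 5.56 (0.02, adjusted p = 0.903).

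The ratio of Atp5a1 to Atp5b in FPKM was 1.18, 1.04 and 1.12 in Gel/S and 0.849, 0.828 and 0.805 in C/D. The ratio was lower in every C/D library than in any Gel/S library, and the exact two-sided permutation test gave p = 0.1, the smallest that 3 against 3 libraries allow. Whether it lies above or below 1 depends on the gene lengths used, since in counts it was 0.877, 0.771 and 0.829 in Gel/S and 0.628, 0.613 and 0.596 in C/D. Atp5c1, the gamma subunit of the rotor shaft, was at 125, 150 and 146 in Gel/S and 164, 153 and 155 in C/D, with no overlap, and did not pass (0.21, adjusted p = 0.136). Atp5e, the small epsilon subunit, rose (0.53, adjusted p = 0.0168), and Atp5d, the delta subunit, did not pass (0.15, adjusted p = 0.347). In the peripheral stalk, which holds the head still, Atp5h (0.46, adjusted p = 0.0176) and Atp5j (0.46, adjusted p = 0.0149) rose, and Atp5f1 and Atp5o did not pass (0.13 and 0.23). Calls were lost without C/D 1 for Atp5e (adjusted p = 0.0837) and Atp5h (0.0743), and without C/D 3 for Atp5h (0.0574) and Atp5j (0.0621). By limma on log2 FPKM with either pseudocount neither Atp5e (0.0563 and 0.0569) nor Atp5h (0.054 and 0.0545) passed, and Atp5e also did not on log2(TPM + 1) (0.0534) or after the coding-length correction (log2 fold change 0.17, adjusted p = 0.141).

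Atp5g1, Atp5g2 and Atp5g3 encode the same mature c subunit of the rotor ring. Atp5g1 was at 8.68, 11.2 and 10 FPKM in Gel/S and 10, 10.8 and 10 in C/D (log2 fold change 0.09, adjusted p = 0.557). Atp5g2 was at 107, 109 and 114 in Gel/S and 115, 117 and 130 in C/D (0.17, adjusted p = 0.16). Atp5g3 was at 120, 129 and 128 in Gel/S and 133, 138 and 142 in C/D (0.18, adjusted p = 0.138). The last 2 had no overlap between groups but differed little. Their shares of the summed c subunit FPKM, which rest on the listed lengths, were 4.05% for Atp5g1, 44.9% for Atp5g2 and 51.0% for Atp5g3 in Gel/S, and 3.84%, 44.8% and 51.3% in C/D, differences within the spread between libraries (exact permutation p = 0.5, 1 and 0.8). None of the 3 genes reached an unadjusted p under 0.05, and DESeq2 called 0.

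The accessory subunits of the membrane part help ATP synthase form dimers. Atp5k (chr5:108433244-108434448), subunit e, was at 49.3, 62.7 and 63.7 FPKM in Gel/S and 119, 81.9 and 98.5 in C/D. All C/D libraries were higher, C/D 1 most of all, and the means were 58.6 ± 8.07 and 99.9 ± 18.8, a fold of 1.75 (log2 fold change 0.81, SE 0.145, adjusted p = 0.00263). Atp5mpl, a small proteolipid subunit, was at 87.2, 106 and 112 in Gel/S and 153, 137 and 155 in C/D (0.59, SE 0.109, adjusted p = 0.00319). Atp5j2, subunit f, was at 37.7, 52.4 and 46.2 in Gel/S and 79.3, 57.7 and 64 in C/D (0.60, SE 0.142, adjusted p = 0.00988). Neither gene had overlapping groups, and Atp5l, subunit g, rose too (0.42, adjusted p = 0.0137). Atp5s, coupling factor B, rose by 0.47 (adjusted p = 0.0137). Without C/D 1 the adjusted p was 0.0532 for Atp5j2 and 0.0581 for Atp5l, and for Atp5s it was 0.0542 without C/D 2 and 0.065 on log2(TPM + 1). Atpif1 (chr4:132530555-132533659), the inhibitor that stops the enzyme from hydrolysing ATP when the proton gradient is low, was at 103, 163 and 134 in Gel/S and 208, 172 and 189 in C/D. Its C/D libraries were all higher (134 ± 29.8 against 190 ± 18.1, log2 fold change 0.55, SE 0.148, adjusted p = 0.0186). The call was lost in 5 of 16 alternatives, with an adjusted p of 0.0563 when Gel/S 3 was left out, 0.0856 for C/D 1 and 0.0566 for C/D 3. Per library, Atpif1 stood at 0.456, 0.781 and 0.636 of the Atp5b level in Gel/S and at 0.962, 0.837 and 0.888 in C/D. The size of this ratio, and its place against 1, depend on the gene lengths used. Over all 6 libraries Atpif1 and Atp5b had 14.7 and 19.6 counts per listed base, but 39.3 and 43.3 per base of transcript.

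**Figure D4:**
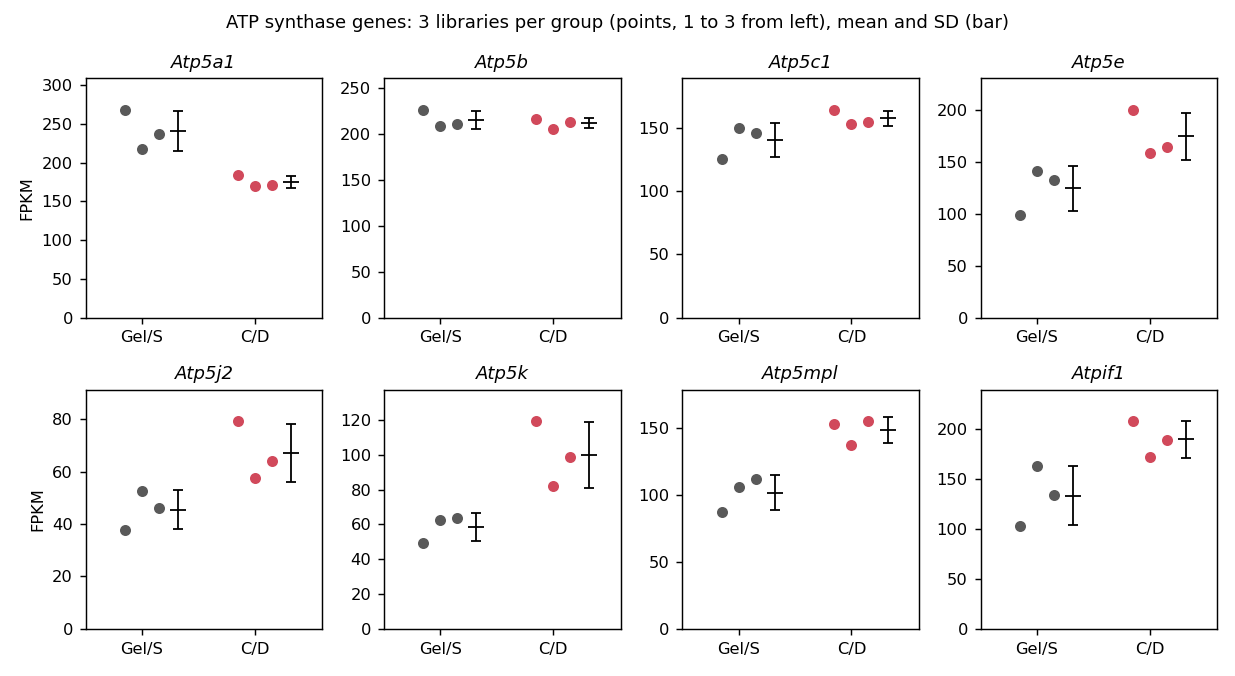
FPKM of 8 ATP synthase genes in each library (points, 1 to 3 from left in each group), with the mean and SD of each group as a bar. Atp5a1 is lower in all C/D libraries (170 to 184) than in all Gel/S libraries (217 to 269), Atp5b is level, and Atp5k, Atp5j2, Atp5mpl, Atp5e and Atpif1 are higher in C/D.

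Of the 25 members that rose, 24 had short coding sequences. With the limit set at 500 bases of the longest coding sequence in GENCODE M21, chosen after the values were seen, 24 of 39 tested members under it rose and, by edgeR and by DESeq2 and at an unadjusted p under 0.05, 0 fell. At or above it 1 of 21 rose, Atp5s with 600 bases, and 1 fell, Atp5a1. The medians were 0.46 and 0.05. Among all tested genes under 500 bases 25.6% rose and 7.64% fell, and of those at or above it 11.2% rose and 16.6% fell, with medians of 0.21 and -0.04. Leaving the members out, 24.0% of the 890 short genes rose. By complex, under 500 bases 2 of 5 rose in complex II, 6 of 7 in complex III, 8 of 15 in complex IV and 8 of 11 in complex V. A split is not clear in complex II, where the 2 were assembly factors. Of its 5 short members 3 had positive and 2 negative log2 fold changes (Sdhd -0.25 and Sdhaf2 -0.12). At or above that length 1 of 7 rose in complex V, and of the 14 in complexes II, III and IV edgeR and DESeq2 called 0 in either direction, with 1 higher and 1 lower at an unadjusted p under 0.05. Of short members, 19 of 29 subunits and 5 of 10 assembly factors rose. Without C/D 1, 12 of the 39 short members rose.

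**Figure D5:**
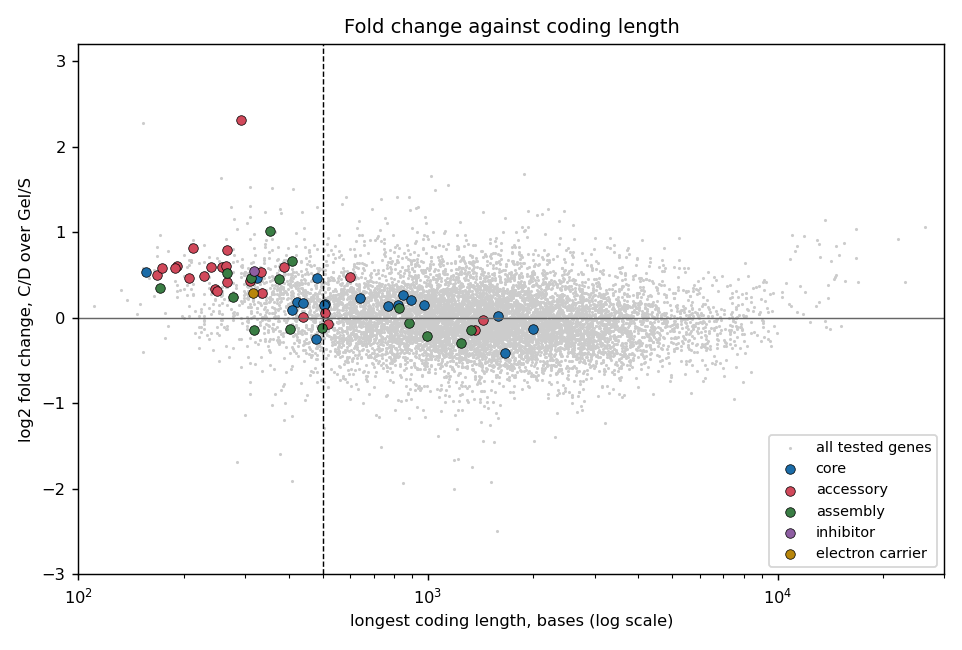
Log2 fold change (C/D over Gel/S) against the longest coding length in bases (log scale), with tested members coloured by role, all tested genes with a coding length in grey and a dashed line at 500 bases. Members under 500 bases lie mostly above 0 (median 0.46) and longer members near it (median 0.05).

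Over the 60 members Spearman's rho between log2 fold change and coding length was -0.73, and over 9938 tested genes it was -0.17. It was -0.51 with the gene length listed in the table, and 0.16 with the mean FPKM. These are descriptions across genes of the same libraries, and genes are not independent replicates. Role and length overlapped but were not the same. Of accessory subunits 15 of 20 short ones rose and 1 of 5 long ones, Atp5s. Of core subunits 3 of 7 short ones rose (Atp5e, Atp5h and Atp5j), and of 11 long ones 1 fell and 10 did not pass. With a correction for coding length, added after the values were seen, 20 members (33.3%) rose, 2 fell and the median was 0.15. In that setting 15.4% of 9938 genes rose, with a median of -0.01. For 18 of the 25 risen members the log2 fold change was then smaller by over 1.5 times, and their median went from 0.53 to 0.31. The part of fragment length or RNA quality in the relation was not tested.

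Other genes that serve complexes II to V but fall outside the naming rule were counted from a separate list. Of its 29 tested genes 6 rose, 1 fell and 22 did not pass, with a median log2 fold change of 0.19. Among all tested genes 13.1% rose and 13.9% fell, with a median of 0.01. Higd2a, a supercomplex and complex IV assembly factor, rose by 0.58 (adjusted p = 0.00561), and Usmg5, a small membrane subunit of ATP synthase, rose by 0.60 (adjusted p = 0.00719). Hspa9, the matrix heat-shock protein that helps transfer iron-sulfur clusters, was lower (log2 fold change -0.52, adjusted p = 0.0161). Of the 6 mitochondrially encoded partners, mt-Co3 rose (0.64, adjusted p = 0.0265) with overlapping groups. The others did not pass, at 0.29 for mt-Cytb, 0.50 for mt-Co1, 0.38 for mt-Co2, -0.27 for mt-Atp6 and 0.74 for mt-Atp8 (adjusted p from 0.068 to 0.259). The value of mt-Atp8 rests on 12, 11 and 8 counts in Gel/S and 23, 14 and 9 in C/D. Mean FPKM was 341 for mt-Co2, 243 for mt-Co3 and 296 for mt-Atp6, against 29811 for mt-Co1 and 10517 for mt-Cytb. The cause of these unequal levels was not tested.

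Summed over members, FPKM of complex II was 345 ± 19.97 in Gel/S and 335 ± 12.5 in C/D, nearly the same. The sums of complex III were 1112 ± 139 and 1429 ± 78.6, those of complex IV 2413 ± 290.0 and 2976 ± 135, and those of complex V 1749 ± 120.1 and 2020 ± 113. The C/D libraries were above all Gel/S libraries in these 3 sums and overlapped with them in complex II. On the listed gene lengths, the largest single parts of these 3 sums were Uqcrh, Cox8a and Atp5b (means of 351, 576 and 214 FPKM). In complex V, Atp5a1 was close to Atp5b, at 208. Many members have processed pseudogenes or near-identical paralogs, and the sources used here do not state how reads with several matches were counted, or whether strand was used, so the counts of Atp5g1 to Atp5g3 and the small subunits carry that uncertainty.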

How the data were processed

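RNA in 6 RAW264.7 libraries (3 Gel/S, 3 C/D) was measured as 1 table for the whole series. The values used were raw read counts per gene as deposited by the authors, and FPKM values, also deposited by the authors. The genome builds GRCm38 and mm10 come from the submitters' processing notes, and no source used here names the aligner or counter. The authors' own group means (a scaled signal), log2 fold change, p-value and adjusted p-value for each gene were also deposited and entered no result. Gene IDs were set beside GENCODE M21 (GRCm38): 54409 of 54532 entries were found, 53499 with the same coordinates. Entries of 1 symbol were summed (100 symbols), which includes Atp5o, whose second entry is 0, and 27 symbols turned into dates by a spreadsheet were restored.

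Counts of the 11708 genes with a mean FPKM of at least 1 were tested with edgeR 4.0.16 (TMM, quasi-likelihood) in R 4.3.3 over all 6 libraries with Benjamini-Hochberg adjustment at 0.05. The test was checked on simulated counts of independent genes. These held no shift shared by many genes of a library, so the check does not cover such shifts. Standard errors and log2 fold changes are from that fit, ± is the SD over n = 3, and FPKM is used for levels between genes. Alternatives used DESeq2 1.42.0, limma 3.58.1 on log2 values, other filters and length corrections, a replicate block and leaving out each library. Members are described per library if they were among the 3 of a complex with the smallest adjusted p in a direction, had the highest level of a complex, or were catalytic, Cycs, Atpif1 or a paralog. Roles were assigned from general knowledge. The members and lists were chosen with earlier results of these data known. Totals of counts set the precision, and among the risen members counting error is largest for Cox6a2.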

Additional observations from a re-analysis of the deposited data

How the results depend on the processing

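The count of risen members (25) was 19 to 26 under the other tools, filters, scalings and corrections and 13 (without C/D 1) to 32 (without Gel/S 2) when 1 library was left out. The count of fallen members (1) was 3 with no filter on low levels and after correction for listed length, 2 by limma on log2(FPKM + 0.1) and after the coding-length correction, and 0 to 3 with 1 library left out. The median of 0.29 was 0.15 after the coding-length correction and 0.17 to 0.38 with 1 library left out. On log2(TPM + 1) it was 0.16 while the median of all genes was -0.12. Of the 25 risen members 24 stayed above 0 in every alternative, and 9 kept their call in all 16: Atp5k, Atp5mpl, Cox5b, Cox6a2, Cox6c, Cox7c, Sdhaf1, Uqcc2 and Uqcrb. Cox6a2 passed the filter only through its level in C/D, so its difference is partly fixed and its place in both counts is no support. Without C/D 1, 12 of the 25 lost their call. The cause was not tested.

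Some fold changes turned negative or positive. Atp5b (log2 fold changes throughout) was at -0.0121 with filterByExpr, -0.0305 with no filter, -0.0251 and -0.0252 on log2(FPKM + 1) and log2(FPKM + 0.1), -0.12 on TPM and -0.0029 to 0.0462 with 1 library left out. Atp5g1 was at -0.0351 on TPM, -0.0513 after the coding-length correction and -0.0073 to 0.189 with 1 library left out. Cox4i1 was at -0.0781 on TPM, -0.0769 with listed length and -0.0398 with coding length. Cox14 was at -0.0006 with coding length, and Uqcrfs1 at -0.0096 with listed length. With 1 library left out Cox4i2 ran from -0.33 to 0.23 and Uqcrc1 from -0.0871 to 0.0153. Uqcrc1 was at 0.0121 with listed length and 0.0102 with coding length.

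With the replicate number as a block, 24 members (40%) rose, 1 fell and the median was 0.30, while 10.6% of all tested genes rose. Same-numbered libraries correlated at -0.0568, -0.0589 and 0.0454 in their deviations from the group means, so the numbers were not taken to pair them. Among tested members depth limits Cox6a2 and Cox7a1 most.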
